A study of Mus musculus with 9 samples.

Results

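The miR-17-92 and miR-106b-25 clusters are 2 groups of microRNAs (miRNAs) that are cut from shared primary transcripts. Their main mature products, together with miR-92b-3p, which comes from a separate gene but carries the same seed as miR-92a-3p, are 10 miRNAs: miR-17-5p, miR-18a-5p, miR-19a-3p, miR-20a-5p, miR-19b-3p and miR-92a-3p (miR-17-92), miR-106b-5p, miR-93-5p and miR-25-3p (miR-106b-25), and miR-92b-3p. These members were chosen by name, among 373 miRNAs that are members or reached a level of 100 in a library of MIN6 cells or of liver, where levels are reads per 1000000 mapped reads (RPMM), and copies of a mature sequence at different genes were merged. A start shifted from the reference 5′ end is a separate entry here and is counted as a miRNA in all shares below. Of the 373, 263 are reference miRNAs without a shift. Of the 10 members, 9 met this limit of 100 RPMM in at least 1 library and miR-19a-3p did not.

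Small RNA-seq was performed on 9 libraries that differed in library preparation. MIN6 is a beta-cell-like line derived from a mouse insulinoma, grown in medium with high glucose and heat-inactivated serum and given no treatment. From MIN6 there were 3 libraries made by TruSeq and 3 by Illumina v1.5, all sequenced on the GAIIx at one facility and on one date, and 1 library made by NEXTflex V2, sequenced on the HiSeq from other MIN6 RNA, elsewhere and later. From the liver of a single young adult female C57BL/6J mouse, which had served as a saline-injected control for another study and was fasted overnight, 1 TruSeq and 1 NEXTflex library were made from the same RNA and sequenced on the HiSeq. Both Illumina protocols ligate adapters of fixed sequence, whereas the NEXTflex adapters end in degenerate bases. TruSeq HiSeq libraries of MIN6 were not analysed here. The study calls the replicates biological, but the labels do not say that they came from separate cultures, so p-values measure the spread between these libraries, which may in part be technical.

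The deposited counts summed to 6923460, 7137973 and 12458630 in the TruSeq and 13158853, 12437294 and 10800301 in the v1.5 MIN6 libraries, to 25638871 in the NEXTflex MIN6 library, and to 17875869 (TruSeq) and 14426009 (NEXTflex) in liver. The NEXTflex libraries held 251879 (MIN6) and 179918 (liver) distinct alignments, against 551421 to 2569547 in the other 7. The beta-cell miRNA miR-375-3p was at 64950 to 186331 RPMM in all 7 MIN6 libraries and at 40.0 (TruSeq) and 26.7 RPMM (NEXTflex) in liver. The other beta-cell marker fixed, miR-7a-5p, varied far more between protocols, with 782 to 1015 RPMM in TruSeq, 4436 to 4852 in v1.5 and 248933 in NEXTflex MIN6, and 6.61 (TruSeq) and 678 RPMM (NEXTflex) in liver. The hepatocyte miRNA miR-122-5p was at 17244 (TruSeq) and 532452 RPMM (NEXTflex) in liver, at 0.15 to 2.38 RPMM in the 6 GAIIx MIN6 libraries and at 128 RPMM in the NEXTflex MIN6 library. The other hepatocyte marker, miR-192-5p, was at 82266 (TruSeq) and 6026 RPMM (NEXTflex) in liver, and in MIN6 at 1291 to 1428 RPMM in TruSeq, 542 to 579 in v1.5 and 249 in NEXTflex. Within TruSeq and within NEXTflex each of these 4 markers was higher in its own source. Whether the level of miR-122-5p in NEXTflex MIN6 bears on the NEXTflex results was not tested.

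A miRNA cluster is transcribed as a single RNA, from which the enzymes Drosha and Dicer release one hairpin per miRNA and then its 2 arms. A mature miRNA finds its targets mainly by its seed, bases 2 to 8 counted from the 5′ end, so members with the same seed share most targets. The miR-17-92 cluster, also called oncomir-1, is induced by MYC, is amplified in lymphomas and promotes proliferation and survival. The miR-106b-25 cluster is a paralog that lies inside Mcm7, which encodes a subunit of the replicative helicase and is induced by E2F factors in dividing cells. Mature levels of members of one transcript need not be equal, since processing and turnover differ between hairpins, but the ratio of 2 members measured in a library does not depend on the depth of that library.

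The mature sequences are shown because the members fall into 4 groups by seed, and every comparison that follows is ordered by these groups. They are from RefSeq (GRCm38.p6), 5′ to 3′, with the seed in capitals, and all 10 members had an entry. The first group has the miR-17 seed.
miR-17-5p: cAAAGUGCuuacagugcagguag
miR-20a-5p: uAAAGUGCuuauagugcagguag
miR-106b-5p: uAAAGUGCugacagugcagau
miR-93-5p: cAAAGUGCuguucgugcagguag
miR-18a-5p differs from that group within the seed.
miR-18a-5p: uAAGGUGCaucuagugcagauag
The third group has the miR-19 seed.
miR-19a-3p: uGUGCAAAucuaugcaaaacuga
miR-19b-3p: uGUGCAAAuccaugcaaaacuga
The fourth group has the miR-92 seed.
miR-92a-3p: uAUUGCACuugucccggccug
miR-25-3p: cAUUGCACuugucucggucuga
miR-92b-3p: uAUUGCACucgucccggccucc

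Sequences within a seed group differed at 1 to 6 bases. With positions counted from 1 at the 5′ end and the first-named miRNA's base first, miR-17-5p and miR-20a-5p differed by C1U and C12U, and miR-19a-3p and miR-19b-3p differed by U11C alone. miR-92a-3p differed from miR-92b-3p by U10C and G21C and from miR-25-3p by U1C, C14U and C18U over the bases they share. The most distant pair of one seed, miR-25-3p and miR-92b-3p, differed at 6 of 22 bases. The difference between miR-106b-5p and miR-93-5p comprised U1C, A11U, C12U, A13C and A20G. The GC content was 50% to 63.6% in the miR-92 seed group and 34.8% to 52.2% in the other members.

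In GRCm38, miR-17-5p (chr14:115043684-115043706), miR-18a-5p (chr14:115043867-115043889), miR-19a-3p (chr14:115044048-115044070), miR-20a-5p (chr14:115044183-115044205), miR-19b-3p (chr14:115044358-115044380) and miR-92a-3p (chr14:115044476-115044496) lie in this order on the plus strand. Their hairpins are all within exon 2 of the long noncoding RNA gene Mir17hg (chr14:115042879-115046727). miR-106b-5p (chr5:138165787-138165807), miR-93-5p (chr5:138165574-138165596) and miR-25-3p (chr5:138165332-138165353) lie on the minus strand within intron 13 of Mcm7 (chr5:138164583-138172422, transcript Mcm7-201). The hairpins of miR-93 and miR-25 are also within exon 1 of a short Mcm7 transcript, Mcm7-202. miR-92b-3p (chr3:89227126-89227147, minus strand) has no host gene, and its hairpin is 28 bases from Mtx1. Second copies of miR-19b-3p (chrX:52741991-52742013) and miR-92a-3p (chrX:52741854-52741874) belong to the paralogous cluster on the X chromosome, minus strand, with no host gene.

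Levels of the members spread over more than 3 orders of magnitude, and their order depended on the library preparation. In the TruSeq MIN6 libraries the order of the group means was miR-25-3p, miR-93-5p, miR-106b-5p, miR-92a-3p, miR-92b-3p, miR-17-5p, miR-19b-3p, miR-20a-5p, miR-18a-5p and miR-19a-3p. Ranges of neighbours in this order overlapped for miR-17-5p with miR-19b-3p and for miR-19b-3p with miR-20a-5p, and for no other neighbours. In v1.5 the order was miR-106b-5p, miR-93-5p, miR-25-3p, miR-20a-5p, miR-17-5p, miR-19b-3p, miR-18a-5p, miR-19a-3p, miR-92a-3p and miR-92b-3p, in which the ranges of miR-17-5p and miR-19b-3p overlapped. Among 263 reference miRNAs, miR-106b-5p was 68th to 69th in the TruSeq and 11th in each v1.5 library, and miR-20a-5p was 229th to 235th and 106th to 109th.

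**Figure D1:**
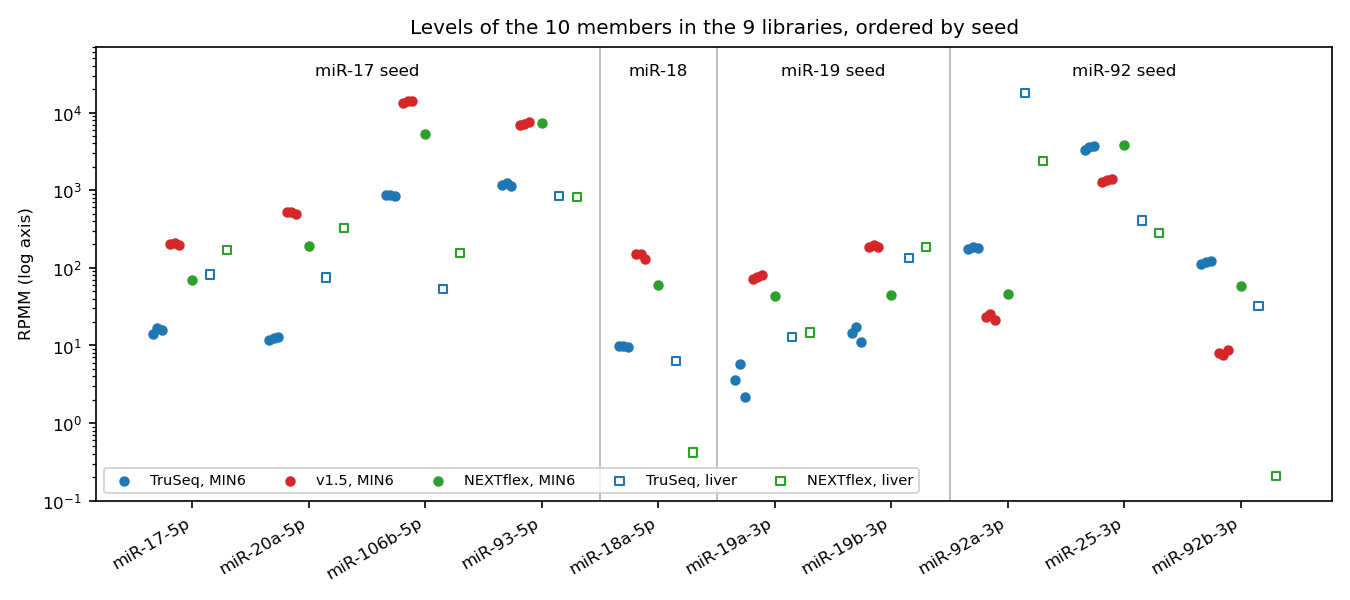
Level of each of the 10 members in each of the 9 libraries, in RPMM on a log axis, ordered by seed group; filled circles are MIN6 and open squares are liver libraries, and 1 point is 1 library. The 3 v1.5 points lie above the 3 TruSeq points for all 7 members with a miR-17, miR-18 or miR-19 seed and below them for the 3 members with the miR-92 seed.

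The comparison of v1.5 with TruSeq asks how far the choice between these fixed-adapter protocols moves the level at which a miRNA is detected in the same cells. The 7 members of the miR-17, miR-18 and miR-19 seed groups were all detected at higher levels by v1.5, between 6.15-fold and 42.0-fold, and the 3 members with the miR-92 seed were all detected at higher levels by TruSeq, between 2.58-fold and 14.6-fold. By the ratio of means, 58.2% of all 318 miRNAs tested were higher and 41.8% lower in v1.5. In edgeR's quasi-likelihood test, with p-values adjusted by the Benjamini-Hochberg method, 10 of the 10 members passed the threshold of 0.05, as did 92.8% of all miRNAs tested. Of the members, 7 were higher in v1.5 (55.03% of all miRNAs) and 3 were lower (37.7%). All 7 of the former were over 5-fold higher (20.8% of all miRNAs), and miR-92a-3p and miR-92b-3p were over 5-fold lower (8.49%). The 3 TruSeq and 3 v1.5 values did not overlap for any of the 10 members, nor for 92.5% of all miRNAs. The median log2 fold change of all 318 miRNAs was 0.56 with mapped reads as library sizes, 0.08 with TMM factors and 0.05 with the size factors of DESeq2. Of all miRNAs, 175 were called higher and 120 lower with mapped reads. These calls were 152 and 150 with TMM factors, and 151 and 150 with the size factors of DESeq2. Relative to the median of 0.56, the members were at 3.14 (miR-17-5p), 4.83 (miR-20a-5p), 3.46 (miR-106b-5p), 2.06 (miR-93-5p), 3.31 (miR-18a-5p), 3.88 (miR-19a-3p), 3.22 (miR-19b-3p), −3.51 (miR-92a-3p), −1.92 (miR-25-3p) and −4.43 (miR-92b-3p). No member turned its direction under another scaling.

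In the miR-17 seed group, whose targets include the cell-cycle inhibitor Cdkn1a, miR-106b-5p was the most abundant member in v1.5. It was at 875, 873 and 838 RPMM in the TruSeq and at 13456, 14228 and 14050 RPMM in the v1.5 libraries. This was a 16.1-fold difference of the means, with a log2 fold change of 4.01 ± 0.05 (SE, edgeR's quasi-likelihood test, adjusted p = 1.34e-13). miR-93-5p, its neighbour on the same transcript, was at 1162, 1225 and 1139 RPMM in TruSeq and at 6971, 7201 and 7500 RPMM in v1.5. The groups were again apart, but the difference was smaller, at 6.15-fold (log2 fold change 2.62 ± 0.05, SE, edgeR's adjusted p = 2.03e-12). TruSeq thus placed miR-93-5p above miR-106b-5p in each of 3 libraries, and v1.5 placed it below in each of 3.

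The 2 members of this seed group on the miR-17-92 transcript were lower than miR-106b-5p and miR-93-5p in each of the 7 MIN6 libraries. miR-17-5p was at 14.0, 16.9 and 15.9 RPMM in TruSeq and at 200.5, 209 and 198 RPMM in v1.5, or 15.6 ± 1.49 against 203 ± 5.85 RPMM (SD, n = 3 libraries each). The difference was 13.0-fold (log2 fold change 3.69 ± 0.08, SE, edgeR's adjusted p = 2.94e-12). miR-20a-5p was at 11.6, 12.4 and 12.7 RPMM in TruSeq and at 520, 530 and 492 RPMM in v1.5. Its log2 fold change of 5.38 ± 0.08 (SE, edgeR's adjusted p = 2.47e-13) was the 8th in size among the 318 miRNAs and the largest of the 10 members, although miR-20a-5p differs from miR-17-5p at only 2 of 23 bases.

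miR-18a-5p was at 9.93, 9.93 and 9.63 RPMM in TruSeq and at 149.6, 149.7 and 130.2 RPMM in v1.5, 14.6-fold higher (log2 fold change 3.87 ± 0.09, SE, edgeR's adjusted p = 7.50e-12). In the miR-19 seed group, miR-19b-3p was at 14.6, 17.4 and 11.0 RPMM in TruSeq and at 183, 199.6 and 187 RPMM in v1.5, 13.2-fold higher (log2 fold change 3.77 ± 0.12, SE, edgeR's adjusted p = 6.92e-11). Over the alternatives its log2 fold change was 3.26 to 4.68, the latter with whole-number counts only (SE 1.51, edgeR's adjusted p = 0.0302). miR-19a-3p was the lowest member in each TruSeq MIN6 library, at 3.61, 5.70 and 2.16 RPMM from 24, 39 and 26 reads. In v1.5 it was at 71.6, 77.05 and 81.2 RPMM, 20.04-fold higher (log2 fold change 4.43 ± 0.19, SE, edgeR's adjusted p = 8.63e-10). Its standard error was the largest of the 10 members, with the fewest reads behind it.

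The members with the miR-92 seed went the other way. miR-92a-3p, the last hairpin of the miR-17-92 transcript, was at 177, 184 and 182 RPMM in TruSeq and at 23.2, 25.8 and 21.1 RPMM in v1.5, 7.76-fold higher in TruSeq (log2 fold change −2.95 ± 0.08, SE, edgeR's adjusted p = 1.37e-11). miR-25-3p, the last hairpin of the miR-106b-25 transcript, was at 3256, 3568 and 3659 RPMM in TruSeq and at 1294, 1363 and 1405 RPMM in v1.5, 2.58-fold higher in TruSeq (log2 fold change −1.37 ± 0.06, SE, edgeR's adjusted p = 5.74e-10). For both clusters the last hairpin thus differed in direction from every other member of its transcript. The log2 fold change of miR-92b-3p, from its own gene, was −3.87 ± 0.09 (SE, edgeR's adjusted p = 5.71e-12), the largest of the 3.

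Sums over a seed or a cluster mixed these directions. The summed level of the miR-17 seed group was 10.6-fold higher in v1.5 and that of the miR-19 seed group 14.7-fold higher, whereas the miR-92 seed group summed to 3794 RPMM in TruSeq and 1385 RPMM in v1.5, 2.74-fold higher in TruSeq. The miR-106b-25 cluster summed to 5532 ± 207 RPMM in TruSeq and 22490 ± 670.5 RPMM in v1.5 (SD, n = 3 libraries each), and the miR-17-92 cluster to 237 ± 7.998 and 1150 ± 41.0 RPMM. Both sums were higher in v1.5, 4.07-fold and 4.85-fold. In MIN6 the miR-106b-25 sum was thus above that of miR-17-92 in each of the 7 libraries.

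The leading members took like shares of their cluster in the 3 libraries of a protocol, and different shares between v1.5 and TruSeq. miR-92a-3p made up 76.8%, 74.7% and 78.0% of the reads of the miR-17-92 members in the TruSeq libraries and 2.02%, 2.16% and 1.90% in the v1.5 libraries. miR-20a-5p took 5.16 ± 0.236% of the cluster in TruSeq and 44.7 ± 0.513% in v1.5 (SD, n = 3 libraries each), where it was the leading member. The low members varied more within TruSeq, where miR-19a-3p had 0.924% to 2.31% and miR-19b-3p 4.73% to 7.06% of the cluster, against 6.23% to 7.32% and 15.96% to 16.8% in v1.5. In the NEXTflex MIN6 library miR-20a-5p also led, with 41.6%, and miR-92a-3p had 10.2% (95% Wilson interval 9.69% to 10.8%). In liver miR-92a-3p made up 98.3% of the cluster in the TruSeq and 77.2% in the NEXTflex library. These intervals, and all intervals given for single libraries, cover counting error only.

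In the miR-106b-25 cluster, miR-25-3p led in TruSeq with 61.5%, 63.0% and 64.9% of the reads, and had 5.96%, 5.98% and 6.12% in v1.5. miR-106b-5p had 15.6 ± 0.850% in TruSeq and 61.9 ± 0.613% in v1.5 (SD, n = 3 libraries each). The leading member was thus miR-25-3p in TruSeq and miR-106b-5p in v1.5. It was miR-93-5p in the NEXTflex MIN6 library (44.1%) and in both liver libraries, where its share was 64.6% by TruSeq and 65.2% by NEXTflex.

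**Figure D2:**
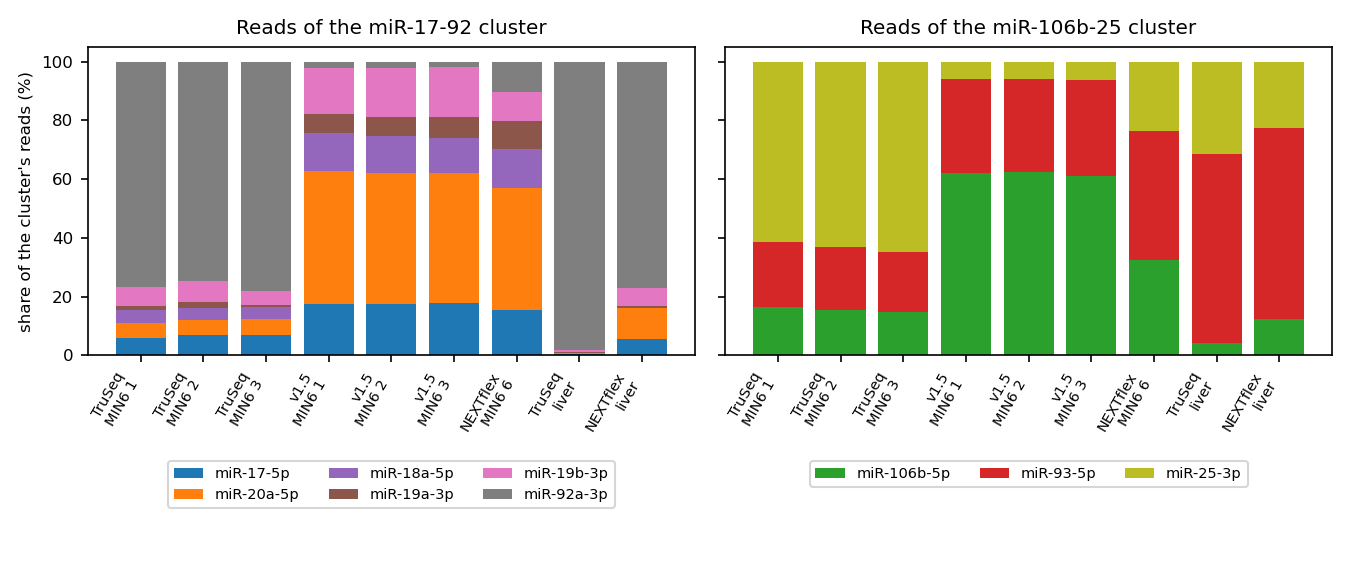
Share of each member among the reads of the 6 miR-17-92 members (left) and of the 3 miR-106b-25 members (right), in percent, with 1 bar for each of the 9 libraries. miR-92a-3p fills 74.7% to 78.0% of the miR-17-92 bar in the TruSeq MIN6 libraries and 1.90% to 2.16% in v1.5, and miR-25-3p fills 61.5% to 64.9% and 5.96% to 6.12% of the miR-106b-25 bar.

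Ratios within a library were compared for the 18 pairs of members that share a transcript, 15 in miR-17-92 and 3 in miR-106b-25. The ratio differed between v1.5 and TruSeq by over 2-fold for 11 pairs (74.8% of all 49770 pairs of the 316 miRNAs with reads in each GAIIx library) and by over 10-fold for 7 (27.9%), all 7 of which contain miR-92a-3p or miR-25-3p. For 14 pairs the 3 v1.5 ratios did not overlap the 3 TruSeq ratios (93.3%), and for 10 pairs the partner with the higher group mean changed (24.2%). The median size of the log2 change was 1.59 over the 18 pairs and 2.08 over all pairs. The members' counts past 2-fold and without overlap were thus below the share over all pairs, and those past 10-fold and with a changed order above it. These pairs share members, and the differences from all pairs were not tested. By the exact two-sided permutation test, each of these 14 pairs reached p = 0.1 (adjusted 0.129 over the 18 pairs), the smallest p that 3 libraries against 3 allow, so no pair could pass 0.05 by this test.

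The log2 ratio of miR-106b-5p to miR-25-3p was −1.90, −2.03 and −2.13 in TruSeq and 3.38, 3.38 and 3.32 in v1.5, a 41.6-fold change of the ratio from 0.247 to 10.3 (geometric means of 3). It was 0.46 in the NEXTflex MIN6 library, −2.93 in TruSeq liver and −0.88 in NEXTflex liver. Thus miR-25-3p exceeded miR-106b-5p by TruSeq in both cells and tissue, and the opposite held in the v1.5 and NEXTflex libraries of MIN6.

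The log2 ratio of miR-20a-5p to miR-92a-3p was −3.94, −3.89 and −3.84 in TruSeq and 4.49, 4.36 and 4.54 in v1.5. The ratio changed 327-fold, from 0.0675 to 22.1, the largest change of the 18 pairs. In the NEXTflex MIN6 library its log2 value was 2.02, and in liver it was −7.91 by TruSeq and −2.86 by NEXTflex. miR-92a-3p thus exceeded miR-20a-5p in both liver libraries, whichever of these protocols was used.

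Members with the same seed also differed in their ratios. The log2 ratio of miR-17-5p to miR-20a-5p was 0.27, 0.45 and 0.32 in TruSeq and −1.38, −1.34 and −1.31 in v1.5, a 3.23-fold change. That of miR-106b-5p to miR-93-5p was −0.41, −0.49 and −0.44 in TruSeq and 0.95, 0.98 and 0.91 in v1.5, a 2.63-fold change. For miR-19a-3p to miR-19b-3p, which differ by U11C alone, it was −2.01, −1.61 and −2.35 in TruSeq and −1.36, −1.37 and −1.20 in v1.5, a 1.61-fold change. In each of these 3 pairs the groups did not overlap. Over the 3 same-seed pairs the size of the log2 change was 0.68 to 1.69 with a median of 1.39, and over the 15 other pairs it was 0.05 to 8.35 with a median of 1.64. The pair that moved least was miR-17-5p with miR-19b-3p, at ratios of 1.10 in TruSeq and 1.07 in v1.5 (exact permutation test, p = 1), with log2 ratios of −0.06, −0.04 and 0.52 against 0.13, 0.07 and 0.09.

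**Figure D3:**
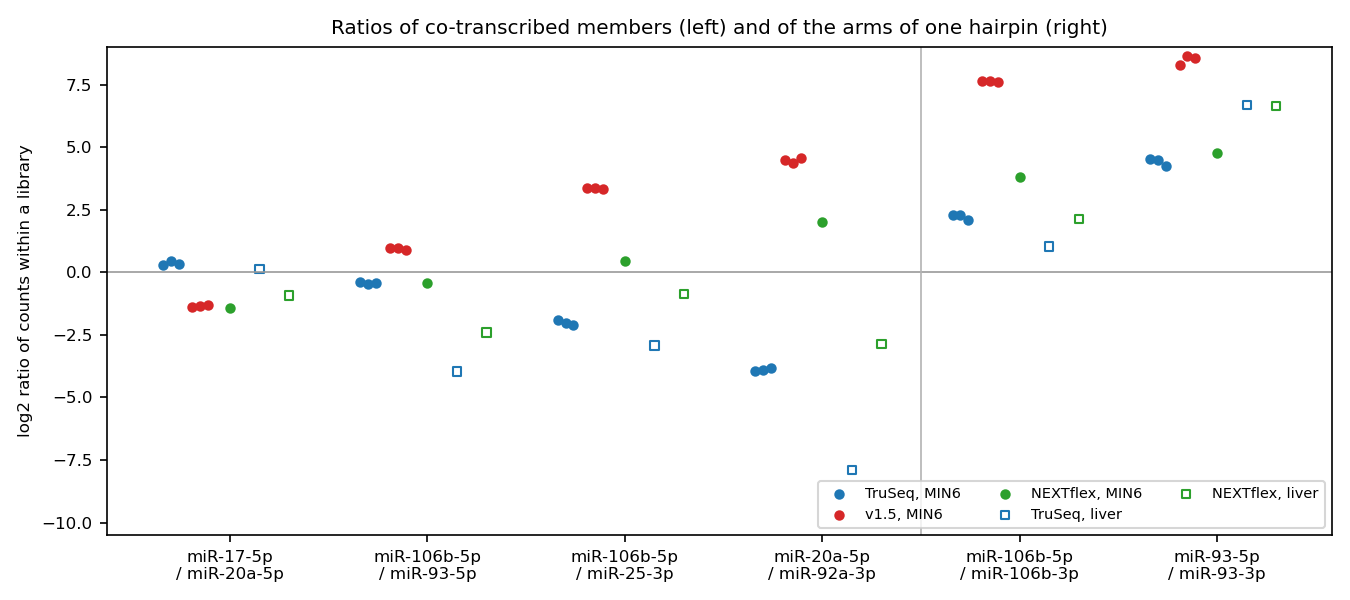
Log2 ratio of counts within a library for 4 pairs of co-transcribed members (left of the line) and for the 2 arms of the miR-106b and miR-93 hairpins (right), with 1 point for each library. Zero means equal counts; the v1.5 points lie above the TruSeq MIN6 points except for miR-17-5p to miR-20a-5p, where they lie below.

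Both arms of a hairpin come from the same precursor molecule, so their ratio was examined for the members' hairpins. The passenger arm miR-106b-3p was at 182, 181 and 197 RPMM in TruSeq and at 66.9, 71.6 and 73.0 RPMM in v1.5. It was thus lower in v1.5, opposite in direction to miR-106b-5p (log2 fold change −1.41 ± 0.06, SE, edgeR's quasi-likelihood test, adjusted p = 1.59e-09). The ratio of 5p to 3p reads of this hairpin was 4.26 to 4.84 in TruSeq and 192 to 201 in v1.5, 14.0 in the NEXTflex MIN6 library, and 2.04 (TruSeq) and 4.34 (NEXTflex) in liver. miR-93-3p was at 50.6, 54.0 and 59.96 RPMM in TruSeq and at 22.5, 18.2 and 19.7 RPMM in v1.5 (log2 fold change −1.45 ± 0.10, SE, edgeR's adjusted p = 7.59e-08). The ratio of its arms was 19.0 to 22.98 in TruSeq, 309 to 396 in v1.5, 27.4 in NEXTflex MIN6, and 102 and 99.8 in liver by TruSeq and NEXTflex. For both hairpins the 5p arm was the more abundant in all 9 libraries.

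Of the list of 12 other arms, these were the 2 in the table of 318 miRNAs, and 1, miR-19a-5p, is named only. The arm ratio moved in the same direction for miR-17, with 3.10 to 6.82 reads of miR-17-5p for each read of miR-17-3p in TruSeq, 24.3 to 29.8 in v1.5 and 24.6 in the NEXTflex MIN6 library. For miR-92a the dominant arm is the 3p arm, and the ratio of miR-92a-3p to miR-92a-1-5p was 21.4 to 24.1 in TruSeq and 3.37 to 5.04 in v1.5. In TruSeq liver this ratio was 611, and no read of miR-92a-1-5p was found in either NEXTflex library, which allows up to 0.117 RPMM in MIN6 and 0.209 RPMM in liver (3 reads). For miR-25, miR-25-3p outnumbered miR-25-5p by 117 to 119 in TruSeq and by 452 to 582 in v1.5, although miR-25-3p itself was lower in v1.5. miR-25-5p was at 27.7, 30.1 and 31.3 RPMM in TruSeq and at 2.22, 3.02 and 2.503 RPMM in v1.5. The arms miR-19b-2-5p and miR-92a-2-5p of the X-linked copies had 0 reads in every library, which allows up to 0.117 to 0.451 RPMM over the 9 libraries.

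The NEXTflex library of MIN6 gave levels between the TruSeq and v1.5 means for 8 of the 10 members, against 28.6% of all 318 miRNAs. The exceptions were miR-93-5p and miR-25-3p. The share of 28.6% was not matched for the distance between these means, which was 2.58-fold to 42.0-fold for the members. Of all miRNAs, 20.8% were over 5-fold higher and 8.49% over 5-fold lower in v1.5 than in TruSeq. The NEXTflex library differs from the other MIN6 libraries in RNA, platform, facility and date as well as in protocol. These cannot be told apart here, and with 1 library there is no test. Its comparisons share the TruSeq and v1.5 libraries with the comparison above. Against TruSeq, 8 members were higher (48.1% of all miRNAs) and 5 over 5-fold higher (17.9%), and none was over 5-fold lower (19.8%). miR-20a-5p, at 189 RPMM, was 15.4-fold and miR-19a-3p, at 43.3 RPMM, 11.3-fold higher than the TruSeq mean. miR-106b-5p (5310 RPMM) and miR-93-5p (7243 RPMM) were each 6.16-fold and miR-18a-5p (60.2 RPMM) 6.13-fold higher. miR-17-5p, at 70.2 RPMM, was 4.498-fold (4.14 to 5.01 against the single TruSeq libraries) and miR-19b-3p, at 45.0 RPMM, 3.14-fold higher. The ratio of miR-19b-3p, most of whose reads are divided between its copies, was 0.0509 when only whole-number counts were used. That setting also keeps divided read forms whose share is a whole number. It therefore cannot tell what direction the undivided reads alone would give. The ratios of the 3 members with the miR-92 seed were below all of these. miR-92a-3p (46.4 RPMM) was 3.91-fold and miR-92b-3p (59.0 RPMM) 2.01-fold higher in TruSeq, and miR-25-3p (3857 RPMM) was at 1.10 times the TruSeq mean, or 1.05 to 1.18 times the single libraries.

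Against v1.5, the same NEXTflex library held 6 members at lower levels (64.8% of all miRNAs) and 4 at higher levels (35.2%). The lower ones were miR-17-5p, miR-20a-5p, miR-106b-5p, miR-18a-5p, miR-19a-3p and miR-19b-3p, at 0.237 (miR-19b-3p) to 0.566 (miR-19a-3p) of the v1.5 mean. miR-93-5p was at 1.00 times the v1.5 mean (0.966 to 1.04 against single libraries), so this NEXTflex level was within the v1.5 range. miR-92a-3p was 1.99-fold, miR-25-3p 2.85-fold and miR-92b-3p 7.29-fold higher in NEXTflex. Only the last passed 5-fold (15.7% of all miRNAs), and none was over 5-fold lower (24.8%). With whole-number counts only, a member was over 5-fold lower.

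In liver the same RNA was prepared by TruSeq and NEXTflex, with 1 library each and therefore no test. Of the 10 members, 5 were higher in NEXTflex (37.6% of 165 miRNAs) and 5 lower (62.4%). Of the latter, 3 were over 5-fold lower (29.1%), and no member was over 5-fold higher (10.3%). With whole-number counts only, 1 member, miR-19b-3p, was over 5-fold higher. The median log2 ratio of NEXTflex to TruSeq, after adding 1 RPMM, was −0.84 over all 165 miRNAs and 0.07 over the members. miR-92a-3p was at 18020 RPMM by TruSeq and 2358 RPMM by NEXTflex, 7.64-fold higher in TruSeq (95% counting interval 7.56 to 7.73, counting error only). With alignments without an edit its ratio of NEXTflex to TruSeq was 0.236 in place of 0.131. miR-18a-5p was at 6.32 RPMM by TruSeq and 0.417 RPMM by NEXTflex, the latter from 6 reads, 15.2-fold higher in TruSeq (6.72 to 42.2). miR-92b-3p was at 32.2 RPMM by TruSeq and at 0.209 RPMM by NEXTflex. With 3 reads in the NEXTflex library the ratio of TruSeq to NEXTflex was 155 with an interval of 52.6 to 751.

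The miR-17 seed group was higher by NEXTflex in liver for 3 of its 4 members. miR-20a-5p was at 75.1 RPMM by TruSeq and 324 RPMM by NEXTflex, 4.31-fold higher (95% counting interval 4.05 to 4.60). miR-106b-5p, at 53.8 and 154 RPMM, was 2.86-fold (2.64 to 3.09) and miR-17-5p, at 82.1 and 171 RPMM, 2.08-fold higher (1.95 to 2.22). For miR-93-5p, at 844 and 819 RPMM, the ratio was 0.970 (0.946 to 0.994), and it became 1.05 with the sums of all deposited counts as library sizes, so that its direction depends on the scaling. miR-19b-3p, at 133 and 184 RPMM, had a ratio of 1.39 (1.31 to 1.47), which was far larger with whole-number counts only. For miR-19a-3p, at 12.9 and 14.7 RPMM, the interval of the ratio included 1 (1.14, 0.943 to 1.39), and for miR-25-3p, at 409 and 283 RPMM, it was 0.692 (0.665 to 0.720).

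Liver was compared with MIN6 within each protocol. For TruSeq the sequencer differs as well, and so does the RNA extraction. The paper gives TRIzol for the National Institutes of Health, where the GAIIx libraries were sequenced, and a Norgen kit for liver. These differences cannot be told apart from that between liver and MIN6. The largest ratio among the 10 members by both protocols was that of miR-92a-3p, which was 99.4-fold higher in liver than the mean of MIN6 by TruSeq and 50.8-fold higher by NEXTflex (95% counting interval 48.0 to 53.9). It ranked 6th among 263 reference miRNAs in TruSeq liver and 20th in NEXTflex liver, against 141st to 146th in the TruSeq MIN6 libraries. When only alignments without an edit were counted, the ratios were 40.9 and 26.9. Of the other 5 members of its transcript, 4 were also higher in liver by TruSeq and 3 by NEXTflex, by smaller factors, and only miR-18a-5p was lower by both protocols. In liver relative to MIN6, miR-17-5p was at 5.26 times by TruSeq and 2.43 times by NEXTflex, miR-20a-5p at 6.14 and 1.72 times, miR-19b-3p at 9.25 and 4.10 times, and miR-19a-3p at 3.37 and 0.340 times. miR-18a-5p was at 0.643 and 0.00692 times. With whole-number counts only, the TruSeq ratio of miR-19b-3p was 0.644, which would leave 3 of the other 5 members higher in liver by TruSeq. That setting does not separate divided from undivided reads, so it does not decide the direction. By TruSeq 5 members were higher in liver (29.2% of 373 miRNAs) and 5 lower (70.5%), and by NEXTflex 4 were higher (24.4%) and 6 lower (73.2%). Over 5-fold higher in liver were 4 members by TruSeq (20.1%) and 1, miR-92a-3p, by NEXTflex (15.01%).

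The miR-106b-25 members were lower in liver by both protocols. miR-106b-5p was 16.02-fold lower by TruSeq and 34.5-fold lower by NEXTflex, miR-25-3p 8.55-fold and 13.6-fold lower, and miR-93-5p 1.39-fold and 8.85-fold lower. miR-92b-3p was 3.67-fold lower by TruSeq, and by NEXTflex it was at 3 reads in liver. Over 5-fold lower in liver were 2 members by TruSeq (53.1% of 373 miRNAs) and 5 by NEXTflex (56.03%). The summed miR-106b-25 members were at 1307 and 1256 RPMM in liver, while the summed miR-17-92 members were at 18329 and 3052 RPMM, so the order of these sums was opposite to that in MIN6. This order rested on miR-92a-3p alone: the other 5 members of miR-17-92 summed to 309 and 694 RPMM, below miR-106b-25 in both liver libraries, as in each of the 7 MIN6 libraries.

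Liver holds blood and endothelial cells, which a cell line does not. Of the 4 markers fixed for red blood cells, miR-486-5p (6186 and 1651 RPMM by TruSeq and NEXTflex) and miR-451 (225 and 51.6 RPMM) were listed and the other two were not. Their sum was 6411 and 1703 RPMM in liver against 2.26 to 37.2 RPMM over the MIN6 libraries. For the 4 white blood cell markers, of which miR-142-5p and miR-150-5p were listed, the sum was 3965 and 85.4 RPMM in liver and at most 5.70 RPMM in MIN6. Both endothelial markers, miR-126-3p and miR-126-5p, were listed, with sums of 8968 and 2725 RPMM in liver and 84.9 to 287 RPMM in MIN6. The part of these cells in the level of miR-92a-3p in liver was not tested, and in bulk RNA fewer cells of a type and less RNA per cell cannot be told apart.

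The lengths of the reads of a member also differed between protocols. Reads of miR-106b-5p in MIN6 were mostly 21 nt long in TruSeq (59.2% to 59.7%, against 21.4% to 21.7% in v1.5) and mostly 22 nt long in v1.5 (63.3% to 63.8%, against 19.0% to 21.1% in TruSeq). The NEXTflex library had 34.6% at 21 nt and 38.8% at 22 nt. For miR-93-5p, 46.4% to 47.3% of the reads were 23 nt long in TruSeq, 85.0% to 85.3% in v1.5 and 79.0% in NEXTflex, and 19.7% to 20.3%, 2.73% to 2.78% and 1.57% were 21 nt long. In TruSeq liver 48.5% of miR-93-5p reads were 21 nt and 21.6% were 23 nt long. For miR-17-5p the 23 nt form made up 46.2% to 54.5% in TruSeq, 91.8% to 93.8% in v1.5 and 72.2% in NEXTflex.

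The share of the commonest length was higher in v1.5 without overlap for 8 of the 9 members with at least 50 reads in every GAIIx library, and lower for miR-92b-3p, against 35.3% higher and 50.4% lower of 238 reference miRNAs. Among the miR-17-92 members, 23 nt reads of miR-20a-5p were 58.8% to 79.2% in TruSeq and 94.7% to 95.1% in v1.5, and those of miR-18a-5p were 41.2% to 45.5% and 79.9% to 83.6%. A single length thus held a larger part of the reads in v1.5 for all 4 members with the miR-17 seed. The authors trimmed Illumina libraries by adapter match and NEXTflex reads by a fixed length at both ends, and the part of trimming in these lengths was not tested.

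**Figure D4:**
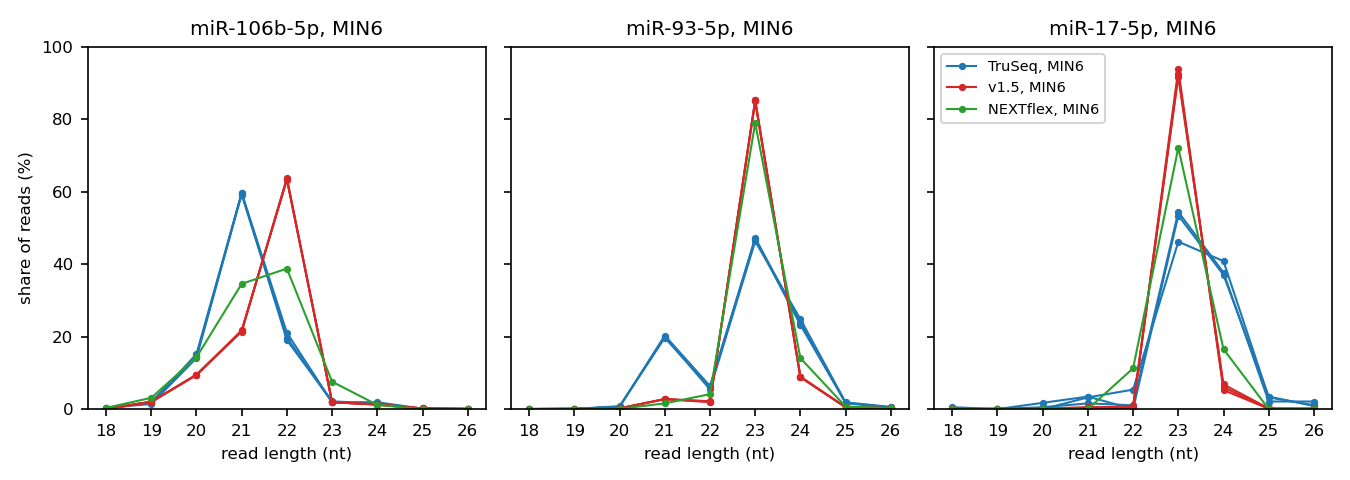
Share of reads by length in nt, in percent of the reads that start at the 5′ end of miR-106b-5p, miR-93-5p and miR-17-5p in MIN6, with 1 line for each of the 7 libraries. The peak of miR-106b-5p is at 21 nt in TruSeq and at 22 nt in v1.5, and the 23 nt peak of miR-93-5p is at 46.4% to 47.3% in TruSeq and 85.0% to 85.3% in v1.5.

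The 3′ ends of miR-92a-3p reads differed between protocols and between liver and MIN6. Untemplated bases, mostly A and U, are added to mature miRNAs by terminal nucleotidyltransferases, and in these files they appear as mismatches at the end of an alignment. The share of miR-92a-3p reads with 2 or more mismatching last bases was 18.8%, 19.2% and 18.4% in the TruSeq MIN6 libraries, the highest of 240 to 244 reference miRNAs in each, whose medians were 0.46% to 0.54%. It was 3.25%, 5.20% and 5.25% in v1.5, below every TruSeq library (a lower share without overlap was found for 18.5% of 238 miRNAs), and 0.422% in NEXTflex (95% Wilson interval 0.180% to 0.983%). In these libraries miR-92a-3p was only 42nd of 246, 21st of 246 and 17th of 245 miRNAs (v1.5) and 93rd of 246 (NEXTflex MIN6). In liver it was 52.0% by TruSeq (51.8% to 52.1%), again the highest of 186 miRNAs with a median of 1.91%, and 21.5% by NEXTflex (21.1% to 21.9%), the sixth of 153.

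The leading forms are shown because they carry this difference. Bases that do not match the Mir92-1 hairpin are in capitals, and each form is the deposited alignment with its reported edits.
miR-92a-3p, 22 nt: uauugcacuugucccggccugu
miR-92a-3p with 1 added base: uauugcacuugucccggccuguA
miR-92a-3p with 2 added A: uauugcacuugucccggccuguAA
miR-92a-3p with added A and U: uauugcacuugucccggccuguAU
The templated 22 nt form made up 62.9% to 65.5% of the reads in TruSeq MIN6, 78.3% to 80.8% in v1.5, 98.1% in NEXTflex MIN6, 22.2% in TruSeq liver and 42.2% in NEXTflex liver. The form with AU was the commonest in TruSeq liver, at 26.97%, with 5.51% to 6.83% in TruSeq MIN6 and 6.30% in NEXTflex liver. The form with AA was at 17.7% in TruSeq liver, 11.4% in NEXTflex liver and 8.66% to 9.67% in TruSeq MIN6. A single added A was the commonest addition in NEXTflex liver, at 17.0%, and in v1.5, at 5.48% to 6.16%. By TruSeq and by NEXTflex, mismatching last bases of miR-92a-3p were thus at a larger share in liver than in MIN6. In both sources the share was larger by TruSeq than by NEXTflex. The protocols were trimmed differently, and the part of trimming in these ends was not tested. Within TruSeq, liver and MIN6 also differ in sequencer and RNA extraction.

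Of the other members with the miR-92 seed, miR-92b-3p had 2 or more mismatching last bases in 6.31% to 7.66% of its reads in TruSeq MIN6, 8.74% to 12.4% in v1.5 and 32.4% in TruSeq liver (28.6% to 36.5%). The 3 v1.5 shares of miR-92b-3p lay above the 3 TruSeq shares (so did those of 41.2% of 238 miRNAs), but they rest on 101, 89 and 91.5 reads, and their 95% Wilson intervals (lowest bound 4.47%, highest 20.8%) overlap those of TruSeq (4.80% to 9.31%). For miR-25-3p, the share was 1.961% to 2.39% in TruSeq MIN6, 2.04% to 2.26% in v1.5 and 3.53% in TruSeq liver (3.12% to 3.998%). By NEXTflex this share of miR-25-3p went the other way, with 1.34% in MIN6 (1.27% to 1.42%) and 0 of 4071 reads in liver (up to 0.0943%). Its reads with 1 or more mismatching last bases did not, with 10.2% in NEXTflex MIN6 and 17.7% in NEXTflex liver. Liver and MIN6 were also compared by the share with 2 or more such bases. In its difference within TruSeq, miR-92a-3p (33.2 percentage points) was second of 172 miRNAs after miR-152-3p (33.6), against a median of 1.09. Within NEXTflex it was 5th of 142 with 21.1 points, where miR-129-5p led with 96.0.

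**Figure D5:**
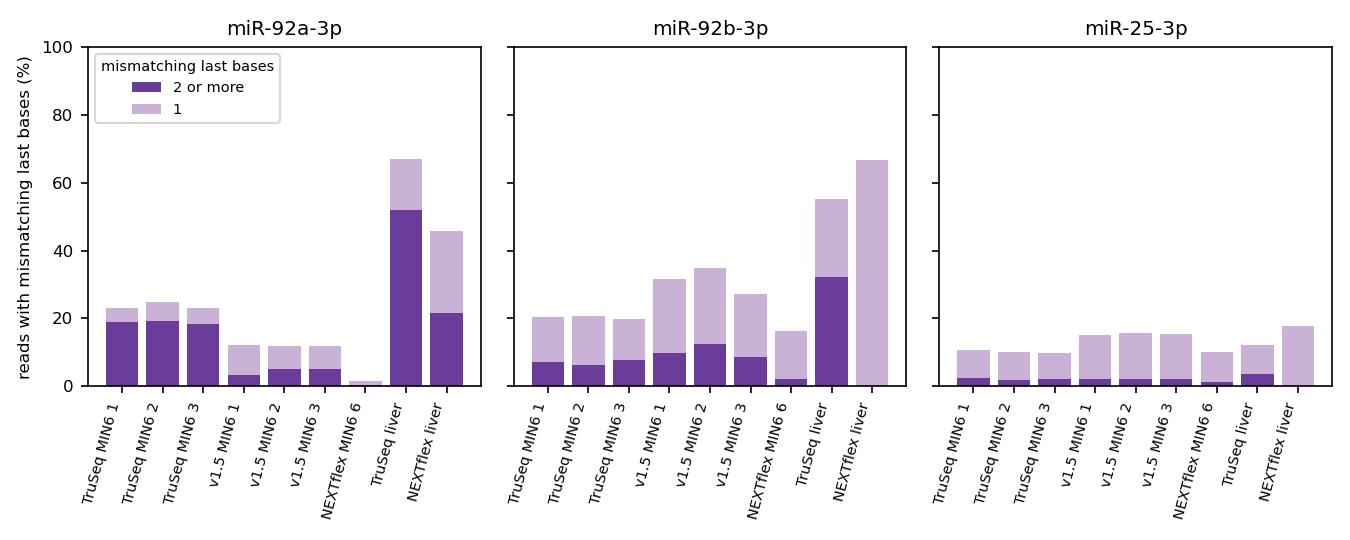
Percent of the reads of miR-92a-3p, miR-92b-3p and miR-25-3p with 1 (light) or with 2 or more (dark) mismatching last bases, with 1 bar for each library. The dark part is 18.4% to 19.2% for miR-92a-3p in TruSeq MIN6, 52.0% in TruSeq liver and at most 3.53% for miR-25-3p in any library; the miR-92b-3p bar of NEXTflex liver rests on 3 reads.

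Reads of miR-19b-3p, whose sequence is the same in both copies, were divided almost evenly by the authors' counting, with 45.3% to 50% at Mir19b-1 over the 9 libraries. Its transcript of origin therefore cannot be read from these counts. For miR-92a-3p, 0.379% to 5.03% of the reads were placed at Mir92-2 on the X chromosome. The 4 other miRNAs of that paralogous cluster, miR-106a-5p, miR-18b-5p, miR-20b-5p and miR-363-3p, were at 1.20 RPMM or less in every library.

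Likeness of patterns was measured as the root mean square difference of centred log2(RPMM + 1) over the 5 combinations of protocol and source (9 libraries). The pattern of miR-19b-3p was closest to that of miR-21-5p (0.26) and miR-30a-3p shifted by 1 base (0.60), against a median of 3.499 over the table. miR-21-5p was also near miR-17-5p (0.60), behind miR-15a-5p (0.57). For miR-25-3p the closest were miR-340-5p (0.33) and miR-335-5p (0.38), for miR-106b-5p miR-379-5p (0.60) and miR-384-5p shifted by 2 bases (0.74), and for miR-92a-3p miR-192-5p (1.05) and miR-126-5p (1.18). Among the members, miR-17-5p and miR-19b-3p were the closest to each other (0.42). The member closest to miR-92a-3p, miR-19b-3p, was at 3.44, farther than the closest member was from any other of these 5.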

How the data were processed

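Small RNA libraries were trimmed by the authors with cutadapt and, for NEXTflex, by fixed lengths, and mapped with Bowtie to mm9, per the submitters' processing notes; tool versions are not given in the sources used here. The deposited files hold alignments with expected counts made by the authors, in which a read with several equal places is divided. These counts exceed the study's mapped reads by 0.264% to 8.41%. RPMM is the summed count of all alignments with the same 5′ end, over the mapped reads of the study.

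Names were placed by their values in the study's tables of highly expressed miRNAs (358 of 358 and 177 of 177 entries, 342 and 170 of them equal in all libraries, and 13 and 3 with several places of the same values), merged to 318 miRNAs for MIN6, 165 for liver and 373 in all. Of these, 238, 118 and 263 were reference miRNAs, and the others were their shifted 5′ starts. Members without an entry (miR-19a-3p) were placed by the constant offset of their chromosome between mm9 and RefSeq positions, which all listed neighbours shared. No coordinates were converted. All members are reported, and other miRNAs only from fixed lists of arms, paralogs and markers and by likeness. The members and lists were chosen with earlier results of these data known.

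Rounded expected counts were fitted with edgeR 4.0.16 (quasi-likelihood test, mapped reads as library sizes, Benjamini-Hochberg adjustment, threshold 0.05) under R 4.3.3, and DESeq2 1.42.0 was the alternative. Counting intervals are 95% exact binomial for ratios and Wilson for shares. Read forms were ranked among reference miRNAs with at least 50 reads. Python 3.11.15, pandas 2.3.3 and SciPy 1.17.1 were used. Replicates differed by more than sampling noise (chi-square per degree of freedom 32.2 to 113). Same-numbered TruSeq and v1.5 libraries deviated together (correlations 0.107, 0.203 and 0.191), which pairs them by the rule used here, and the fit with the replicate number as a block called 297 of 318 miRNAs. Alternatives were other scalings, filters, read sets, starts within 2 nt, 1 RPMM added and each library left out. The test was checked on simulated data.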

Additional observations from a re-analysis of the deposited data

Results flagged for a closer look

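For 3 members the ratio of NEXTflex to TruSeq was above 1 in MIN6, against each of the 3 TruSeq libraries, and below 1 in liver. For miR-18a-5p it was 6.13 in MIN6 and 0.0660 in liver, where NEXTflex had 6 reads. For miR-93-5p it was 6.16 in MIN6 and 0.970 in liver, and the latter became 1.05 when the sums of all deposited counts were the library sizes. For miR-25-3p it was 1.10 in MIN6 and 0.692 in liver. The difference between MIN6 and liver was not tested, because 3 of the 4 groups involved hold 1 library.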

How the results depend on the processing

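The log2 fold changes of the 10 members kept their direction and their side of the threshold in all 172 values under the alternatives run, with 7 members higher and 3 lower in v1.5 in each fit. Leaving out each of the 6 GAIIx libraries in turn gave 283 to 293 miRNAs called, against 295 of 318. The fit with the replicate block called 297 and changed the call of none of the 10 members, and differences of same-numbered libraries cannot go below p = 0.25 for a pair ratio (exact sign flips). TMM factors gave 302 calls, DESeq2's test 298, whole-number counts 267 and alignments without an edit 286. A table of miRNAs of at least 500 RPMM gave 138 calls of 145, and a table of all 5′ ends gave 27998 of 54055, since they hold fewer or more features. Among the pair ratios 169 of 180 alternative values stayed within 1 SD, and among the ratios between single libraries 178 of 250 stayed within their counting interval or replicate SD.

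With whole-number counts only, miR-19b-3p moved. This setting keeps or drops a divided read form by whether its share is a whole number, so it does not isolate undivided reads. The log2 fold change of miR-19b-3p between v1.5 and TruSeq became 4.68 (edgeR's adjusted p = 0.0302). Its ratio of liver to MIN6 within TruSeq became 0.644 (main value 9.25). Its ratio of NEXTflex to TruSeq became 0.0509 in MIN6 (3.14) and 54.6 in liver (1.39). In the same setting 1 member was over 5-fold higher in NEXTflex against TruSeq liver (main value 0). In MIN6, 1 was over 5-fold lower in NEXTflex against TruSeq and against v1.5 (0). By NEXTflex, 2 were over 5-fold higher in liver (1). Depth limits miR-18a-5p and miR-92b-3p in NEXTflex liver, with 6 and 3 reads. With 1 RPMM added to both values their ratios of NEXTflex to TruSeq were 0.194 and 0.0364, against 0.0660 and 0.00647. Alignments without an edit gave 0.772 for miR-19a-3p (main value 1.14) and 0.236 for miR-92a-3p (0.131) in that comparison. The causes of these moves were not tested.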

Other observations

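The 5′ end of a read sets its seed. Over reads that start within 2 nt of the reference 5′ end, a start 1 base upstream was found in 15.6% of miR-17-5p, 12.2% of miR-92a-3p and 11.5% of miR-19b-3p reads in the NEXTflex MIN6 library. For miR-19a-3p such a start was found in 9.81% of 237 reads in TruSeq liver (95% Wilson interval 6.55% to 14.1%), and in 2 of 26, 4 of 43 and 2 of 28 reads in the TruSeq MIN6 libraries, with intervals that span 1.98% to 24.1%. In NEXTflex liver it was found in 5.42% of miR-106b-5p reads. As aligned, such reads carry a seed shifted by 1 base. NEXTflex reads were cut by a fixed length at both ends, and the part of trimming in these starts was not tested. In every other member and library, at least 95% of these reads started at the reference base.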
